A study of Homo sapiens with 4 samples.

Results

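The genes described here are the sensors of double-stranded RNA and the factors that carry their signal and the interferon signal into the nucleus, as measured in human HCT116 colorectal carcinoma cells after depletion of LAS1L, a nucleolar factor of ribosomal RNA processing. The members were taken by gene symbol from a set of 9: the sensors RIGI (DDX58 in older annotation), IFIH1 and EIF2AK2, the adaptor MAVS, and the transcription factors STAT2, IRF1, IRF3, IRF7 and IRF9. The annotation used here paired 8 of these 9 genes with 11 of the 47323 probes on the array. It paired no probe with STAT2, whose expression was not analysed here. The array annotation names 20024 genes in all, and 17689 of its probes could be tested. In RNA of whole cultures, fewer cells of a kind and less RNA per cell cannot be told apart.

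The Las1L group holds 2 arrays, 1 from cells given Las1L siRNA #1 and 1 from cells given Las1L siRNA #2. The control group holds 2 arrays of cells given a control siRNA. Cells of all 4 arrays received 40 nM siRNA with a lipid reagent, with a labelled duration of 72 h, so double-stranded RNA was delivered in both groups. The siRNA sequences differed between the groups, and an effect of sequence apart from LAS1L depletion was not tested. HCT116 is a single established line. Nothing in the labels says that the control arrays came from separate cultures, and each Las1L siRNA has 1 array. The p-values therefore measure only the spread between these arrays, much of it borrowed from other probes, as given with the processing.

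RIG-I-like receptors bind double-stranded RNA in the cytosol and signal through MAVS on mitochondria to the kinases that activate IRF3 and IRF7, which switch on interferon genes. Secreted interferon acts through its receptors and the JAK kinases on STAT proteins, and STAT2 with IRF9 forms part of the complex that binds the interferon-stimulated response element (ISRE). IRF1 is itself induced through the gamma-activated site (GAS) and drives antigen presentation genes, while EIF2AK2, also called PKR, is an RNA-activated kinase that blocks translation initiation.

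The delivered siRNAs are shown first, because they are the double-stranded RNA that both groups received. Each had 19 ribonucleotides with an overhang of 2 deoxythymidines, left off here, and the strand is as the labels give it. The share of G and C was 47.4% in siRNA #1, 42.1% in siRNA #2 and 47.4% in the control siRNA.

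Las1L siRNA #1: cugauacgcuguaagcucu
Las1L siRNA #2: cauuuauacccagagugga
Control siRNA: gaucauacgugcgaucaga

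The targeted gene was checked before the members. The single LAS1L probe read 211.5 with siRNA #1 and 158.1 with siRNA #2, against 770 and 717.5 with control siRNA. Signal is the deposited intensity in array units, and values up to 28.1 units are at background by the noise estimate described with the processing. The log2 fold change of LAS1L was -2.02 (SE 0.19, adjusted p = 0.0555 in limma without a trend, 2.3e-07 in limma with an intensity trend). Across the 17689 tested probes, log2 signals correlated at 0.987 between the Las1L arrays and at 0.985 between the control arrays, and from 0.974 to 0.975 between groups. Of 11 probes of colon epithelium markers 8 were above background on all 4 arrays (EPCAM, KRT8, KRT18, KRT19 and CDH1), and the probes of CDX1, VIL1 and CLDN4, of which CDX1 and VIL1 mark intestinal epithelium, were at background on every array. In the same count 14 of 19 leukocyte, fibroblast and endothelial marker probes were at background on every array and the other 5 exceeded background on 1 to 3 arrays, with 63.7 units as the highest value. In the trend fit 1 CDH1 probe rose and 1 KRT18 probe fell among the 8 tested epithelial probes, and 0 of the 4 tested probes of other cell types passed. The brighter KRT18 probe did not pass in the trend fit, with a log2 fold change of -0.040. Of all tested probes 8.12% were higher and 7.70% lower in that fit. The part of these markers in the results was not tested.

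IRF1, a transcription factor of antigen presentation and growth control, was 1.82-fold higher with Las1L siRNA, and the kinase EIF2AK2 was 1.27-fold higher. Neither passed in the primary limma fit, and both passed in limma with an intensity trend. The tested MAVS probe was 1.36-fold lower and passed in neither fit. In the primary limma fit its adjusted p was 0.157, beside 0.177 for EIF2AK2. RIGI and IFIH1, the cytosolic sensors themselves, differed by less than the spread between arrays. In the primary limma fit, which uses no intensity trend, 0 of the 8 tested member probes passed an adjusted p of 0.05, and 0% of all tested probes did, although 3 member probes and 4266 of all probes had an unadjusted p under 0.05. In limma with an intensity trend 2 member probes were higher, where 8.12% of all tested probes were, and 0 were lower, where 7.70% were. The words "rose" and "fell" are kept below for probes past the trend threshold, all of which missed that of the primary fit. The median log2 fold change of the 8 probes was 0.19, beside 0.0002 over all tested probes.

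**Figure D1:**
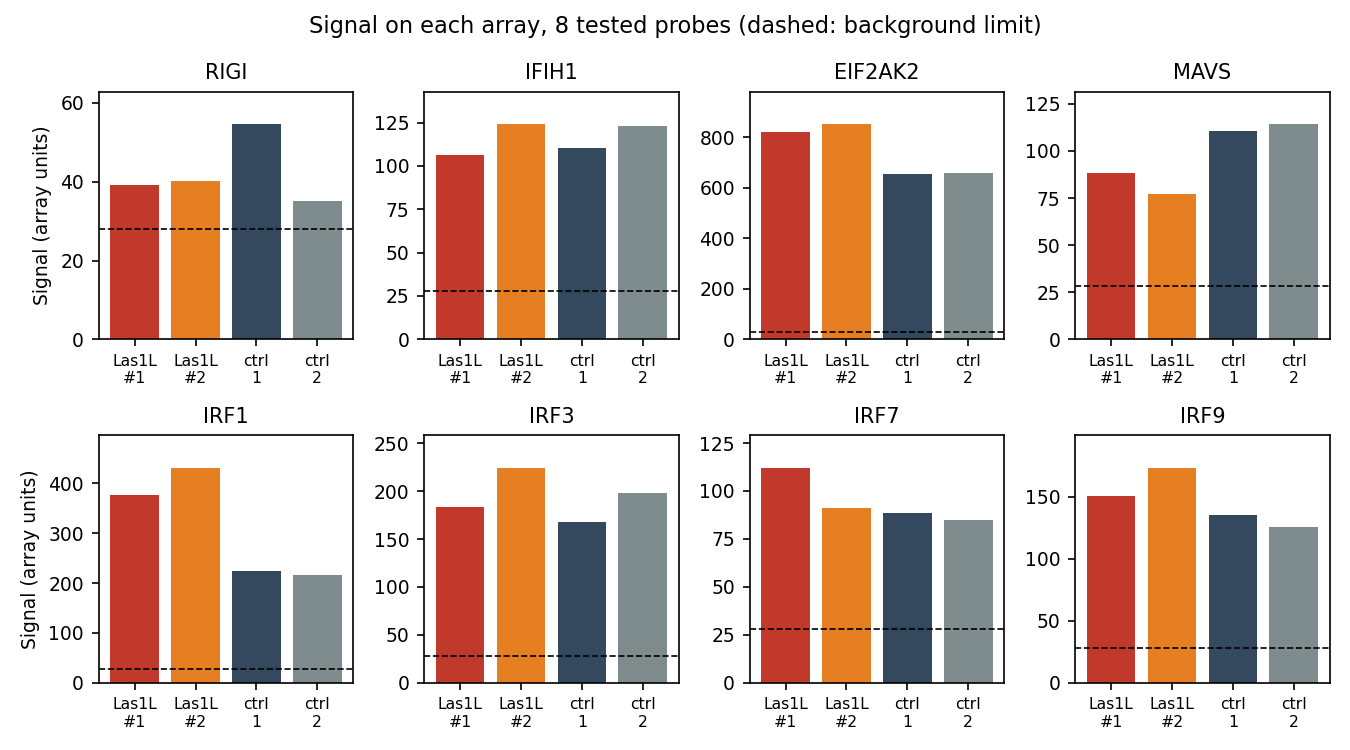
Signal in array units (vertical axes, each from 0) of the 8 tested member probes on the arrays of Las1L siRNA #1, Las1L siRNA #2, control 1 and control 2, with 1 bar per array and the background limit of 28.1 units dashed. Both Las1L bars stand above both control bars for EIF2AK2, IRF1, IRF7 and IRF9 and below them for MAVS.

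The 8 tested member probes were each above background on all 4 arrays, so none entered the test through 1 group alone. Both Las1L arrays lay above both control arrays for 4 of the 8, where 28.0% of all tested probes did so, and below both for 1, where 27.9% did. The remaining 3 overlapped. No test was made of these counts.

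Among the sensors, RIGI, which recognises RNA with a 5′ triphosphate, gave 39.1 units for siRNA #1 and 40.1 for siRNA #2, against 54.6 and 35 with control siRNA. These values are near the background limit of 28.1 units, and those of siRNA #1 and control replicate 2 lay under a stricter limit of 39.7 units. The Las1L values lay between the controls, which differed from each other by 0.64 on the log2 scale. The log2 fold change was -0.14, with a 95% interval of -0.82 to 0.53 in the primary limma fit (adjusted p = 0.782), and it turned to 0.18 without control replicate 1.

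IFIH1, also called MDA5, which detects long double-stranded RNA, gave 106 and 124 units with Las1L siRNA #1 and #2, against 110.4 and 122.9 with control siRNA. The Las1L arrays bracketed the controls, 1 just below and 1 just above them. The log2 fold change was -0.023, with an interval of -0.42 to 0.37 (primary limma fit, adjusted p = 0.947), and its sign turned when control replicate 2 (0.054) or the siRNA #1 array (0.090) was left out.

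EIF2AK2 gave 820.7 units with siRNA #1 and 851.4 with siRNA #2, against 655.6 and 658.3 in the control pair. The controls lay within 0.01 of each other on the log2 scale and the Las1L arrays within 0.05. A gap between 2 arrays is a weak measure of spread, and the SE that limma used was larger. Both Las1L arrays lay above both controls, as they did for 28.0% of all tested probes. The log2 fold change was 0.35 (SE 0.11, 95% interval 0.04 to 0.65, adjusted p = 0.177 in the primary limma fit; SE 0.10, adjusted p = 0.0319 in limma with the trend). Leaving out control replicate 1 gave 0.34 and an adjusted p of 0.113 in the trend fit, leaving out control replicate 2 gave 0.35 and 0.0957, leaving out siRNA #1 gave 0.37 and 0.214, and leaving out siRNA #2 gave 0.32 and 0.279. The trend call was also lost with a floor of 50 units (adjusted p = 0.0721 in limma) and with no filter (adjusted p = 0.160 in limma).

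MAVS, the adaptor shared by RIGI and IFIH1, has 2 probes on the array. The brighter, ILMN_2131493, read 88.5 and 77 with Las1L siRNA #1 and #2, against 110.5 and 114.2 in the control pair. Both Las1L arrays were below both controls, and the log2 fold change was -0.44 (SE 0.13, 95% interval -0.80 to -0.09, adjusted p = 0.157 in the primary limma fit; adjusted p = 0.169 with the trend). The dimmer probe, ILMN_1800152, read 26.7 and 38.3 with Las1L siRNA, against 25.5 and 11.9 with control siRNA. It exceeded background on 1 array, was not tested, and lay in the opposite direction to its partner.

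Among the transcription factors, IRF1 gave 376 units with siRNA #1 and 431.4 with siRNA #2, against 224.9 and 217.1 in the control pair. The groups did not overlap, and the signal was 170% of the control mean with siRNA #1 and 195% with siRNA #2. This gave a log2 fold change of 0.87 (SE 0.13, 95% interval 0.51 to 1.22, adjusted p = 0.0676 in the primary limma fit; SE 0.13, adjusted p = 4.0e-04 with the trend). In the trend fit the adjusted p was 0.107 without siRNA #1 and 0.136 without siRNA #2, with log2 fold changes of 0.97 and 0.77 there. In the trend fit it was also lost with a floor of 50 units (adjusted p = 0.0896) and with no filter (adjusted p = 0.183). In the primary fit IRF1 passed when only probes above background on all 4 arrays were tested (adjusted p = 0.0242 in limma).

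The profile of IRF1 over the 4 arrays was most closely followed by 3 other named probes out of 13630 compared, by the root-mean-square distance between log2 values centred on each probe's mean. These were ICA1 at a distance of 0.014, POLE3 at 0.015 and CYFIP2 at 0.018. ICA1, an islet cell autoantigen, read 293.5 and 340.9 with Las1L siRNA #1 and #2, against 173.3 and 171 with control siRNA. With 4 arrays many probes can follow a profile this closely, so the likeness is a description.

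IRF3, the constitutive factor activated by MAVS signalling, gave 183.2 units for siRNA #1 and 224.5 for siRNA #2, against 168.2 and 198.4 with control siRNA. The ranges overlapped, and the log2 fold change was 0.15, with a 95% interval of -0.31 to 0.62 (primary limma fit, adjusted p = 0.653).

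IRF7, the inducible partner of IRF3, was measured by ILMN_1798181 at 112.1 and 91.3 units with Las1L siRNA #1 and #2, against 88.5 and 84.6 with control siRNA. Both Las1L arrays were higher, siRNA #2 by little, and the log2 fold change was 0.23 (95% interval -0.19 to 0.64, adjusted p = 0.442 in the primary limma fit). The other 2 IRF7 probes were below 0 on every array and carry no information on level.

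IRF9, the DNA-binding part of the ISRE complex, gave 150.2 units for siRNA #1 and 173.3 for siRNA #2, against 134.9 and 125.9 in the control pair. Both Las1L arrays were higher than both controls, with a log2 fold change of 0.31 (95% interval -0.06 to 0.68, adjusted p = 0.268 in the primary limma fit, 0.261 with the trend). The interval holds both no difference and one larger than that of EIF2AK2.

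**Figure D2:**
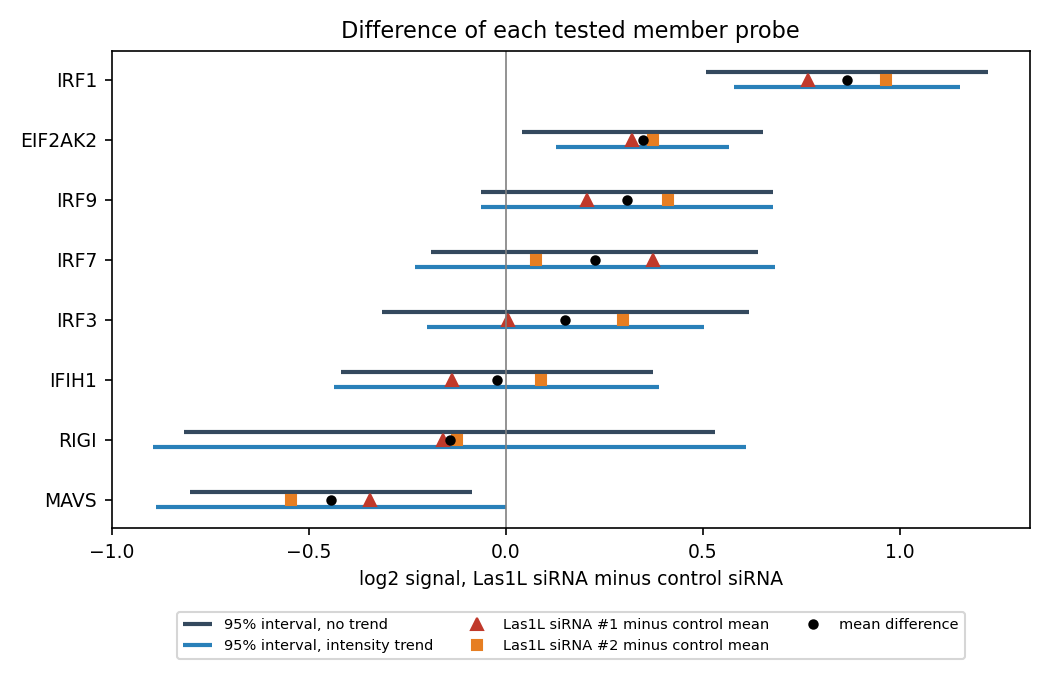
Log2 signal with Las1L siRNA minus control siRNA for the 8 tested member probes, ordered by size from IRF1 at the top to MAVS at the bottom. Black points are mean differences, triangles and squares are siRNA #1 and siRNA #2 against the control mean, and lines are 95% intervals of limma without and with the intensity trend; both intervals lie to 1 side of 0 for IRF1, EIF2AK2 and, narrowly with the trend, MAVS.

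The siRNAs can be set side by side, with 1 array each and no test between them. IRF1 had log2 differences from the control mean of 0.77 with siRNA #1 and 0.97 with siRNA #2, EIF2AK2 of 0.32 and 0.37, and MAVS of -0.34 and -0.54. Both values rest on the same control arrays. IRF7 was further from the controls with siRNA #1 (0.37, against 0.077 with siRNA #2), whereas IRF9 was further with siRNA #2 (0.41, against 0.20 with siRNA #1).

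**Figure D3:**
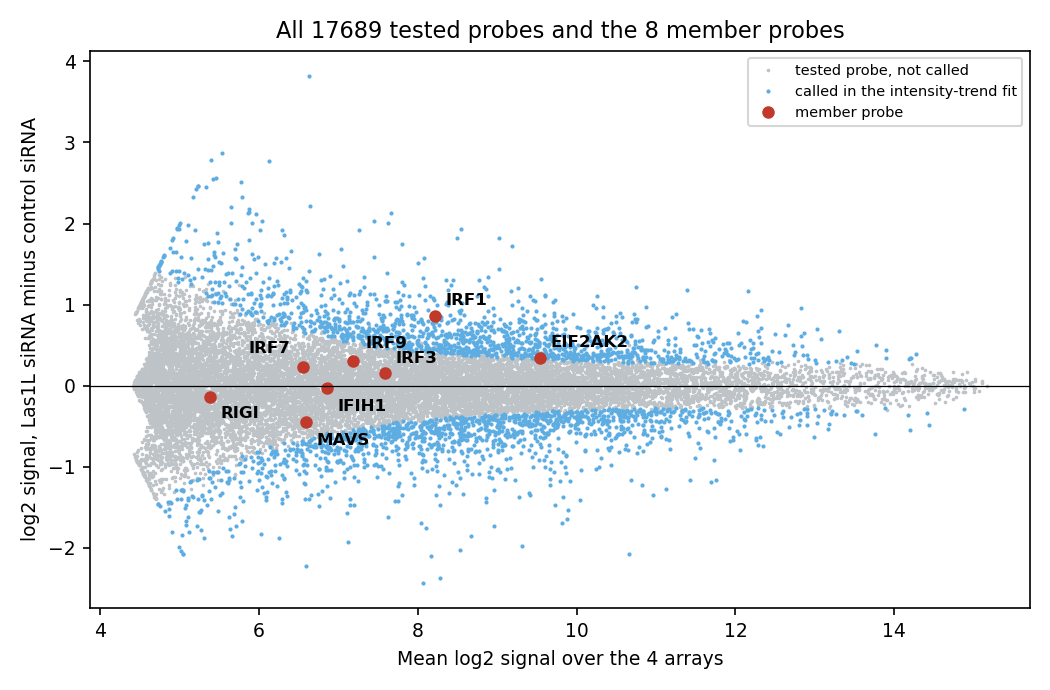
Mean log2 signal over the 4 arrays (horizontal axis) against the log2 difference of Las1L siRNA from control siRNA (vertical axis) for the 17689 tested probes, with probes called in the intensity-trend fit in blue and the 8 member probes in red. IRF1 and EIF2AK2 lie among the blue points, and the other 6 lie in the grey band whose width grows as signal falls.

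The partners of these genes in RNA sensing were represented by 65 probes, of which 36 were tested, for 25 genes. Of these, 4 probes rose and 2 fell, where 8.12% and 7.70% of all tested probes did. The median log2 fold change was 0.043, beside 0.0002 over all tested probes. PRKRA, also called PACT, a double-stranded RNA-binding protein that activates EIF2AK2, fell by 1.07 (SE 0.12 in limma with the trend, adjusted p = 1.7e-05), reading 386.6 and 340.8 with Las1L siRNA #1 and #2, against 779.6 and 740.5 with control siRNA. Its direction was opposite to that of EIF2AK2. TRIM25, the ubiquitin ligase that acts with RIGI, fell by 0.50 (SE 0.12).

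ADAR, which edits double-stranded RNA and restrains its sensing, rose on both of its tested probes, by 0.43 (SE 0.11) and 0.28 (SE 0.09). TANK, a scaffold of the kinases upstream of IRF3, rose by 0.40 (SE 0.11). MYD88, an adaptor of Toll-like receptors, rose by 1.18 (SE 0.28), and the estimate was 0.68 without control replicate 2 and 1.68 without control replicate 1, the control arrays reading 78.7 and 39.5 units. Its call was lost without control replicate 2 (limma with the trend, adjusted p = 0.116). The kinase TBK1 had a log2 fold change of -0.074 and TICAM1, the adaptor of TLR3, values of -0.10 and 0.038 on its probes, and none passed. The only DHX58 probe, for the third RIG-I-like receptor, was below 0 on every array.

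All 14 probes of 10 interferon genes were untested, and 13 of them were at background on every array. The exception was 1 IFNW1 probe at 32 units with siRNA #1. IFNB1 lay below 0 throughout. Interferon transcripts below the reach of these probes were not measured.

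Receptors, JAK kinases and other STAT and IRF genes gave 23 tested probes for 16 genes, with a median of 0.061. Of these probes 0 rose and 3 fell, beside 8.12% and 7.70% of all tested probes. IFNAR1, a chain of the type I interferon receptor, fell by 0.60 (SE 0.15), with 195.7 and 236 units for Las1L siRNA #1 and #2, against 300.6 and 351.4 for control siRNA. IFNGR1, a chain of the interferon-gamma receptor, fell by 0.37 (SE 0.12), and IRF2BPL fell by 0.39 (SE 0.10). IFNAR2 had log2 fold changes of -0.11 and -0.15 on its probes, JAK1 -0.16 and TYK2 0.061, and none passed. Of 16 tested probes for inhibitors of the pathway 1 rose and 0 fell, beside the same shares of all tested probes, with a median of 0.0042. The 1 that rose was PTPN1, a phosphatase that acts on JAK kinases, by 0.36 (SE 0.09).

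Interferon-stimulated targets downstream had 84 probes, of which 39 were at background on every array, among them the only MX1, IFI27, RSAD2 and CXCL10 probes. The 41 tested probes, for 31 genes, had a median of 0.50. Of these 19 rose and 0 fell, beside 8.12% and 7.70% of all tested probes. The list was chosen with its rise in these arrays known, so the count is not independent evidence. The count also includes the IFIT2 probe, which read 73.5 and 68.9 units with Las1L siRNA #1 and #2. That probe was at background on both control arrays, so it entered the test through the Las1L group alone. The genes with the smallest p were UBE2L6, IFI6, ISG15 and TAP1. UBE2L6, the conjugating enzyme for ISG15, gave 1167.8 and 1124 units with Las1L siRNA #1 and #2, against 518.2 and 539.5 with control siRNA, on its brighter tested probe. ISG15, a ubiquitin-like modifier, rose by 0.77 and IFI6 by 1.04 on its brighter probe. TAP1, the peptide transporter of antigen presentation and a known IRF1 target, rose by 0.70 (SE 0.10). In limma without the trend 0 of the 41 passed, and 20 had an unadjusted p under 0.05. The counts for the partner, receptor, inhibitor and target lists were each 0 in the trend fit without either Las1L array. Without control replicate 1 they were 3, 0, 0 and 10, and without control replicate 2 they were 2, 0, 1 and 15.

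**Figure D4:**
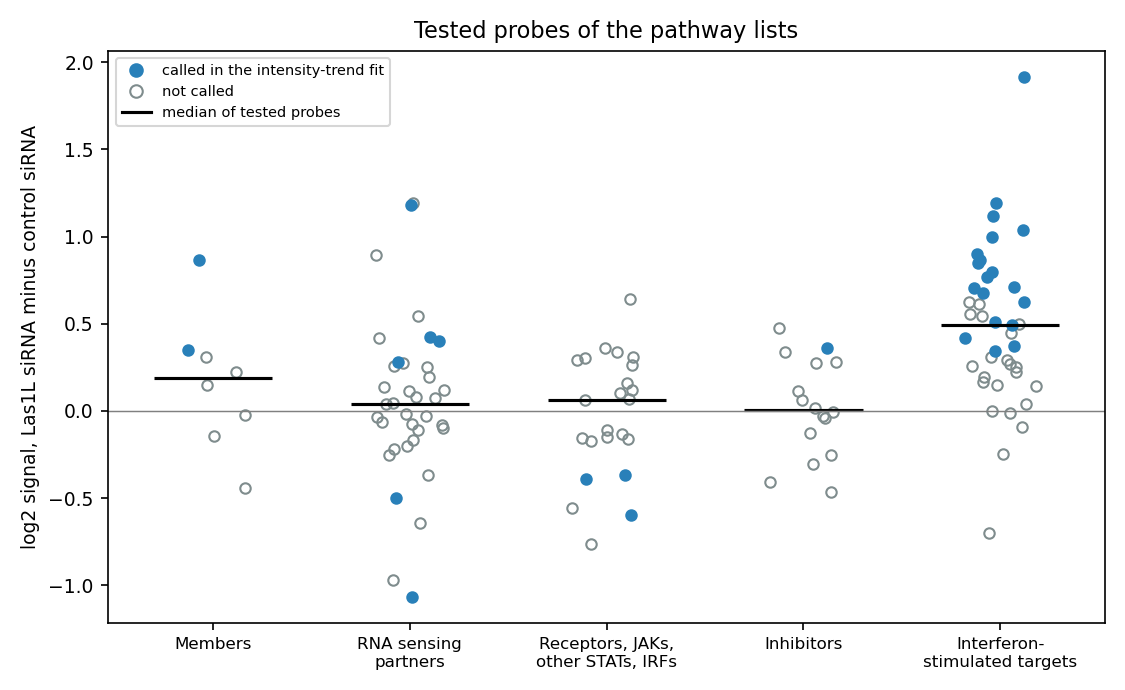
Log2 signal with Las1L siRNA minus control siRNA for each tested probe of the members and of 4 pathway lists, with filled points called in the intensity-trend fit, open points not called and a line at the median. Filled points of the targets all lie above 0, while the receptor list has 3 below 0.

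The promoters of the members were searched for the ISRE core GAAANNGAA and the GAS core TTCNNNGAA on both strands, the ISRE core reading TTCNNTTTC on the other strand and the GAS core being the same on both. The windows run from 250 bases before to 50 after the gene start, in the RefSeq table for GRCh38.p14, and 7 members had one. The ISRE core occurred in 2 of the 7, IFIH1 and EIF2AK2, and in 8.11% of all 35116 windows. The GAS core occurred in 2 of the 7, IRF1 and IRF9, and in 7.66% of all windows. Matches that overlap are counted separately.

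Windows are printed for the members that rose and for IFIH1, the member with the most ISRE matches, which did not pass the test. Each is given 5′ to 3′ on the gene's own strand, the minus strand in each case, with matches in capitals. The IRF1 window, chr5:132490724-132491023, holds 1 GAS match that begins 124 bases before the start. The EIF2AK2 window, chr2:37156931-37157230, holds 1 ISRE match that begins 6 bases before the start. The IFIH1 window, chr2:162318635-162318934, holds 4 ISRE matches, 3 of them overlapping in 1 run that begins 164 bases before the start and the fourth beginning 21 bases before it.

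IRF1 promoter: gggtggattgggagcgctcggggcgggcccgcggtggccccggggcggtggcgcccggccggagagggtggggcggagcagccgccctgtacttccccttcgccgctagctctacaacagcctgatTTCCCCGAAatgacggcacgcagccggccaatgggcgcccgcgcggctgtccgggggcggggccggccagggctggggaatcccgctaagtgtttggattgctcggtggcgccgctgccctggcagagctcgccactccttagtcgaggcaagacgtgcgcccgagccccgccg
EIF2AK2 promoter: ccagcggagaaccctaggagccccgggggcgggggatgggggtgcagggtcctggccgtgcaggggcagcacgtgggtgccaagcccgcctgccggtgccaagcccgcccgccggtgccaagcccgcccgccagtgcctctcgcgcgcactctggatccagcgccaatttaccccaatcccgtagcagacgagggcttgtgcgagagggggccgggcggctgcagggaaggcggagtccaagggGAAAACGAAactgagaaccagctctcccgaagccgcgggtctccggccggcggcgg
IFIH1 promoter: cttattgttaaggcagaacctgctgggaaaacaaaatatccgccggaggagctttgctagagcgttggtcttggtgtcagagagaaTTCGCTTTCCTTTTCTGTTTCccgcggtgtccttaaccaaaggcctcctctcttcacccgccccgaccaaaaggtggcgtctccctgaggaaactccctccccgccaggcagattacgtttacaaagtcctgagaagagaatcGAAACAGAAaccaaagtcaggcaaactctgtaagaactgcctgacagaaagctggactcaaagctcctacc

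Set beside the array values, IRF1 and EIF2AK2 each held 1 match and rose, IFIH1 held 4 and had a log2 fold change of -0.023, and IRF9 held 1 and had one of 0.31. RIGI, MAVS and STAT2 held neither core in these windows. A match describes letters only, and binding was not measured.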

How the data were processed

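RNA of HCT116 cells was hybridised to Illumina HumanHT-12 v4 bead arrays, 4 in all. The deposited values are linear probe intensity, made with GenomeStudio per the submitters' processing notes, with version, background and normalization options not given in the sources used here. Each array had the same median (14.9) and the same highest value (37640.9), with 26.9% of probes below 0 and 17280 to 17284 above the background limit. Values below 0 are what background subtraction leaves, and such equality is what matching whole distributions between arrays leaves, though no label states either step. Matched distributions hold the median difference over all probes near 0, so the all-probe median of 0.0002 partly reflects the processing. A second deposited table has 8 value columns whose names match no sample's labels, and these were not used.

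A floor of 16 units was applied before log2. The background limit, 28.1 units, is the one-sided 0.05 point of noise centred on 0 whose root mean square, 17.1 units, was taken from the negative values. Probes above it on at least 2 of 4 arrays were tested, 17689 of 47323. The number of arrays limits the precision. Symbols came from a platform annotation (30113 probes with 1 symbol, 8 with several, 17202 with none), updated through RefSeq names of GRCh38.p14, with 30113 matched.

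The primary test was limma (limma 3.58.1, R 4.3.3; lmFit and eBayes, 2 groups, two-sided, Benjamini-Hochberg over all tested probes at 0.05), and the same fit with an intensity trend was carried beside it. The prior variance weighed as 2.21 degrees of freedom without the trend and 13.8 with it, against 2 from the arrays. Exact permutation of 2 against 2 arrays cannot reach the threshold and was not used. The members, lists and tests were chosen with earlier results of these data known. Named are every member probe, at most 4 genes a direction per list with the smallest p past the trend threshold, 8 pathway genes whatever their values, and the 3 probes most like the leading member. Alternatives were the floor, an offset, the filters, 1 probe per gene, the variance prior, the threshold and leaving out each array.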

Additional observations from a re-analysis of the deposited data

Results flagged for a closer look

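IFIH1 was the tested member for which the siRNAs lay on opposite sides of both control arrays, siRNA #1 below them and siRNA #2 above them. Its log2 difference between siRNA #2 and siRNA #1 was 0.23. The siRNA #2 array read 124 units, just above the higher control array at 122.9. IRF7 (-0.30) and IRF3 (0.29) had larger differences between the siRNAs. The control arrays of IFIH1 were 0.15 apart on the same scale, and with 1 array per siRNA the difference was not tested.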

How the results depend on the processing

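The array number (siRNA #1 or #2, control replicate 1 or 2) names different things in the groups and is not a pairing by the labels. The difference between array 1 and array 2 correlated at 0.034 over the tested probes between the groups. With that number as a replicate block, a choice made after seeing the data, the count of member probes past the threshold was 0 without the trend and 2 with it. Among all tested probes it was 0 without the trend and 3278 with it. The inhibitor list had 3 probes past the trend threshold with the block. The count of member probes past the threshold in the primary fit, 0, became 1 under each of 5 changes: the offset of 64, the filter on all 4 arrays, the stricter limit, 1 probe per gene, and a threshold of 0.1. In each of these 5 changes the probe was IRF1. The trend made the count 2. It ranged from 0 to 0 without 1 array. In the trend fit the count of 2 was 0 under a floor of 50, without any filter and with no trend, and ranged from 0 to 1 without 1 array. Among all tested probes the primary count of 0 became 226 with a floor of 50, 2229 with the offset, 28 unfiltered, 1267 under the filter on all 4 arrays, 865 under the stricter limit, 501 with 1 probe per gene, 1500 at 0.1 and 2798 with the trend. The trend count of 2798 became 48 under a floor of 50, 0 unfiltered and 0 with no trend, and ranged from 0 to 1495 without 1 array, which leaves fewer samples. The cause of the other changes was not tested. The LAS1L fold change of -2.02 passed under the filter on all 4 arrays, the stricter limit, 1 probe per gene, the trend and the 0.1 threshold, and at -1.71 under the offset. It ranged from -2.23 to -1.81 without 1 array.

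For the 8 tested members, 97 of 112 alternative values kept their direction and their side of the threshold, 12 lost the call (IRF1 and EIF2AK2) and 3 changed sign (RIGI and IFIH1), each with 1 array left out. RIGI then ranged from -0.46 to 0.18 and IFIH1 from -0.14 to 0.090. Changes of sign in the lists also came with 1 array left out. The ranges were -0.032 to 0.11 and -0.33 to 0.13 for the TICAM1 probes, -0.16 to 0.011 for TBK1, -0.31 to 0.088 and -0.42 to 0.12 for the IFNAR2 probes, -0.34 to 0.012 for JAK1 and -0.039 to 0.16 for TYK2. The list counts in the trend fit were 0 with a floor of 50 and with no filter.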
